A study of Tupaia belangeri with 15 samples.

Results

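GABA and glycine carry the inhibitory signals of the retina, and 31 genes of this machinery were followed across the cell classes and ages of the tree shrew (TS) retina: GABA-A, GABA-B and glycine receptor subunits, the enzymes that make GABA, the transporters of both transmitters and the synaptic scaffold gephyrin. The genes were chosen by name, 31 of the 83605 features in the count files being sought. Of these, 29 were found by name, 25 held at least 1 unique molecular identifier (UMI, 1 counted RNA molecule) and 23 held at least 100 UMIs in nuclei assigned to a class. GABRR2 and SLC6A13 were found neither by name nor as a numbered copy and were left out. GABRQ, GLRA3, GAD2 and SLC32A1 were listed at 0 in all 15 libraries, and GABRE with 11 UMIs and SLC6A5 with 66 UMIs in all libraries were too sparse to be described by class. A numbered copy of GABRQ, GABRQli1, held 329 UMIs. A numbered copy of SLC6A11, SLC6A11li1, held 4323 UMIs beside 59160 under the gene's name. Neither copy was counted among the members.

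The nuclei came from retinas of 15 animals in 3 stages, with 5 retinas each, labelled Infancy, Mature and Senile. Ages in months ran from 1.4 to 2.1 in the infant stage, from 24.96 to 36 in the mature stage and from 85.8 to 86.56 in the senile stage. All were untreated, and no genetic line was named. Senile animals came from another institute than the infant and mature animals, so age and source cannot be told apart in any comparison with the senile stage. Each library was 1 animal. The p-values between stages measure the spread between these animals. Those between classes of the same retinas measure how far the difference of the classes varied from animal to animal.

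GABA-A receptors are chloride channels built of several subunits, and the subunits a cell makes set where in the membrane the channel sits and how it responds. Receptors with alpha, beta and gamma subunits gather at synapses, those with a delta subunit lie outside them, and rho subunits form slow, sustained channels known from the axon terminals of bipolar cells (BCs). Glycine receptors are chloride channels of alpha and beta subunits, and GABA-B receptors are paired subunits that act through G proteins. In the retina, horizontal cells (HCs) and amacrine cells (ACs) are the inhibitory neurons. They act on photoreceptors, BCs and retinal ganglion cells (RGCs), while Müller cells and neighbouring neurons take the transmitters up again.

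A library contained between 13429873 and 58734300 UMIs, in 4269 to 9856 barcodes. After the limits on genes and mitochondrial UMIs and the removal of 7940 doublets among 119765 nuclei, 71245 of 111825 nuclei were assigned to 9 classes by marker genes, none of them a member of the list. These were 19927 ACs, 18978 BCs, 14509 cones, 6869 Müller cells, 6120 RGCs, 1633 HCs, 1483 astrocytes, 995 rods and 731 microglia. Assigned nuclei lay in a cluster of the same class in 96.1% of cases, and in HCs in 73.7%. Clusters were named by the class of most of their assigned nuclei, so this share is high partly by construction. Pairs of libraries shared 4 to 29 barcodes. The file headers split the libraries by the version of Cell Ranger, the program that counted the UMIs: 7 (Infancy 1 to 3, Mature 1 and 2, Senile 1 and 2) carried 6.1.2 and 8 carried 7.0.1. Several members differed with this split, and the values are given beside the results concerned.

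Levels below are UMIs per 1000000 UMIs of the class in a retina (CPM), as mean ± SD over retinas, a class being measured where it had 20 nuclei or more. Because UMIs were not scaled by gene length, levels are compared for 1 gene between classes and not between genes. The order of the classes is a description without a test. Under a stricter assignment of nuclei another class led for GABRA2 (RGCs), GABRA3 (HCs), GABRB1 (Müller cells), GABRB2, GABRG1 and GLRB (ACs), and with clusters for GABRB2 (RGCs) and GABRG1 (ACs). Microglia, taken as a class for background, held GABRA2 at 52.9 CPM and GLRA1 at 57.5 CPM. How much free RNA, remaining doublets or expression contributed to such low values was not tested.

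The astrocytes of Mature 4 stood apart. Their astrocyte markers summed to 1360 CPM, against 3674 to 7641 in the other 14 retinas, and their markers of retinal pigment epithelium to 165 CPM, against at most 66.6. Without Mature 4, a choice made after seeing the data, the astrocyte levels given below became 522 ± 194 CPM for SLC6A11, 207 ± 36.9 for GABBR1 and 44.9 ± 17.9 for GABRP (n = 14). RGC markers summed to 228 to 2114 CPM in astrocytes over all retinas, and their part in the astrocyte levels of the members was not tested.

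**Figure D1:**
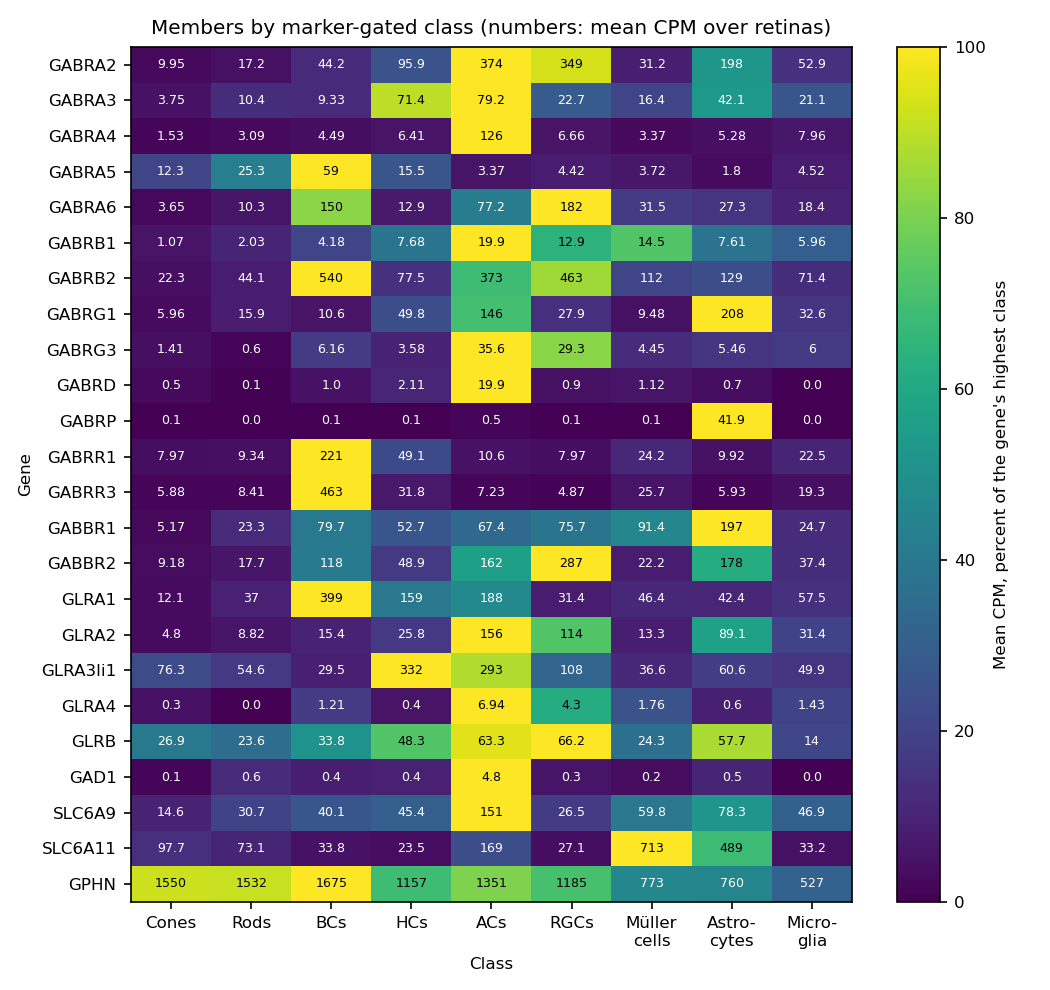
Mean CPM (number in each cell) of the members with at least 100 UMIs, and of the numbered copy GLRA3li1, in the 9 marker-gated classes over 14 or 15 retinas; colour gives the mean as a percentage of the gene's highest class. BCs were highest for GABRR1 and GABRR3, ACs for GABRA4 and GABRD, Müller cells for SLC6A11 and astrocytes for GABRP, while GPHN stood at 527 CPM or more in every class.

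Among the GABA-A alpha subunits, which form part of the GABA binding site, each of the 5 measured had its own order of classes. GABRA2 was highest in ACs at 374 ± 56.9 CPM (lowest 274, median 386, highest 445, n = 15) and nearly as high in RGCs at 349 ± 76.7, with ACs above RGCs in 12 of 15 retinas. GABRA3 was highest in ACs at 79.2 ± 10.7 CPM (lowest 63.2, median 82.2, highest 96.2) and in HCs at 71.4 ± 25.4. The leading classes of GABRA2 and GABRA3 did not differ beyond their spread. In astrocytes GABRA2 ranged from 2.06 through 200 to 493 CPM, with 357 ± 105 under version 6.1.2 and 59.1 ± 78.2 under 7.0.1. GABRA4 was an AC gene here, at 126 ± 25.7 CPM (lowest 73.5, median 122, highest 166) against 7.96 ± 8.07 in the next class, microglia. GABRA5 was highest in BCs at 59.0 ± 19.9 CPM (lowest 39.3, median 53.9, highest 120), followed by rods at 25.3 ± 15.1. In ACs GABRA5 stood at 3.37 ± 1.30 CPM. GABRA6, known best from granule cells of the cerebellum, was present in 3 retinal neuron classes: RGCs at 182 ± 38.0 CPM (lowest 131, median 184, highest 279), BCs at 150 ± 26.7 and ACs at 77.2 ± 14.4.

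Of the beta subunits, on which every common GABA-A receptor depends, GABRB2 was broad among inner retinal neurons. It measured 540 ± 65.1 CPM in BCs (lowest 407, median 542, highest 672), 463 ± 70.5 in RGCs and 373 ± 56.4 in ACs, and 22.3 in cones. GABRB1 measured 19.9 ± 4.94 CPM in ACs and 14.5 ± 8.90 in Müller cells. Of the gamma subunits, which anchor receptors at synapses, GABRG1 and GABRG3 were measured, and among the neurons each had its highest mean in ACs. GABRG3 measured 35.6 ± 8.53 CPM in ACs (lowest 24.2, median 36.1, highest 52.8) and 29.3 ± 11.6 in RGCs, and these did not differ beyond their spread. Under a stricter assignment of nuclei the level in ACs became 116 CPM for GABRG3, 12.3 for GABRB1 and 193 for GABRA4. GABRG1 measured 146 ± 79.8 CPM in ACs and 208 ± 214 in astrocytes.

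The spread of GABRG1 followed the header version. In astrocytes it measured 409 ± 129 CPM in the 7 libraries of version 6.1.2 and 31.6 ± 35.2 in the 8 of version 7.0.1, and in ACs 221 ± 34.6 and 79.6 ± 31.9. Astrocytes lay above ACs in 7 of 15 retinas, all of them of version 6.1.2, so no order of these 2 classes holds for GABRG1 across the libraries. Whether the program, the library preparation or the animals, including their sex, differed cannot be told apart here. Among the libraries of version 7.0.1, Senile 3 was the highest for GABRG1 in astrocytes, at 111 CPM.

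The delta subunit GABRD was found in ACs at 19.9 ± 14.4 CPM (lowest 4.44, median 15.2, highest 45.9), with HCs next at 2.11 ± 2.85. Its level in ACs was 31.6 ± 9.82 CPM under version 6.1.2 and 9.66 ± 8.62 under 7.0.1, with Senile 3, a library of version 7.0.1, at 30.3. The pi subunit GABRP, known mostly from epithelia outside the nervous system, was restricted in these counts to astrocytes, which held 97.5% of the sum of its class means. It measured 41.9 ± 20.8 CPM in astrocytes and at most 0.506 in any other class, and rested on 268 UMIs in all. In the infant retinas GABRP in astrocytes was 25.4, 44.3, 34.8, 72.3 and 51.1 CPM. In the mature retinas it was 46.0, 10.3, 50.5, 0 and 56.5 CPM, and in the senile retinas 51.2, 14.0, 59.2, 62.5 and 50.8. Astrocytes were thus above ACs in 14 of 15 retinas, the exception being Mature 4, where a count of 0 allowed up to 6.17 CPM.

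The rho subunits GABRR1 and GABRR3 were the clearest BC genes of the list. GABRR1 measured 221 ± 56.9 CPM in BCs (lowest 143, median 207, highest 308) and 49.1 ± 18.7 in HCs. GABRR3 measured 463 ± 130 CPM in BCs (lowest 326, median 450, highest 712) and 31.8 ± 17.5 in HCs. BCs were above HCs in 15 of 15 retinas for each, and the ranges of GABRR1 and GABRR3 in BCs and HCs did not overlap. Levels in BCs were higher under version 6.1.2, at 269 ± 41.7 against 179 ± 25.6 CPM for GABRR1 and 577 ± 95.4 against 363 ± 41.0 for GABRR3.

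The GABA-B subunits, which work as a pair, were spread over neurons and glia with unlike orders. GABBR1 was highest in astrocytes at 197 ± 50.9 CPM (lowest 65.8, median 196, highest 277), followed by Müller cells at 91.4 ± 17.4 and BCs at 79.7 ± 21.5. GABBR2 had its highest mean in RGCs, 287 ± 59.4 CPM (lowest 170, median 295, highest 394), which lay above astrocytes in 10 of 15 retinas. Astrocytes carried GABBR2 at 339 ± 75.6 CPM under version 6.1.2, where RGCs carried 329 ± 40.1, and at 36.8 ± 54.7 under 7.0.1, where RGCs carried 250 ± 48.3. No order of RGCs and astrocytes therefore holds for GABBR2 across the libraries. ACs carried 162 ± 41.0 CPM over all retinas. Müller cells, high for GABBR1, held GABBR2 at 22.2 ± 12.5 CPM.

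The alpha subunits of the glycine receptor counted by name were led by BCs or by ACs. GLRA1 was highest in BCs at 399 ± 44.3 CPM (lowest 346, median 402, highest 504), with ACs at 188 ± 25.3 and HCs at 159 ± 41.6, and BCs were above ACs in 15 of 15 retinas. GLRA2 was highest in ACs at 156 ± 24.3 CPM (lowest 113, median 161, highest 201), with RGCs at 114 ± 14.5, and ACs were above RGCs in 15 of 15 retinas. GLRA1 in RGCs was 31.4 ± 16.5 CPM and GLRA2 in BCs 15.4 ± 6.73. GLRA4 measured 6.94 ± 1.78 CPM in ACs and 4.30 ± 1.77 in RGCs. GLRA3 was listed at 0 by name, while a numbered copy, GLRA3li1, held 63143 UMIs and measured 332 ± 79.1 CPM in HCs and 293 ± 31.5 in ACs. It was called in each comparison of classes described below, with log2 fold changes of 3.43 in ACs against BCs, -1.42 in RGCs against ACs, -1.38 in ON against OFF BCs and -2.95 in starburst against other ACs, and is not counted among the members there. This copy was added after its counts had been seen, and how reads are shared between copies was not tested. The beta subunit GLRB, which ties the receptor to gephyrin, was even across RGCs at 66.2 ± 24.4, ACs at 63.3 ± 17.9 and astrocytes at 57.7 ± 35.8 CPM, with no order beyond the spread. GLRB in RGCs was 87.8 ± 9.88 CPM under version 6.1.2 and 47.2 ± 15.1 under 7.0.1.

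The genes that define inhibitory neurons by their transmitter were nearly missing from the counts. GAD1, which makes GABA from glutamate, reached 4.80 ± 2.34 CPM in ACs and at most 0.599 in any other class, on 375 UMIs in assigned nuclei. GAD2, its partner enzyme, and SLC32A1, which loads both transmitters into vesicles, were listed at 0. Genes outside the list that many cells use, such as ABAT and TRAK2, were also listed at 0, so these zeros do not show that the RNA was absent.

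Of the uptake transporters, SLC6A11 and SLC6A9 were detected in numbers that allow a description by class. SLC6A11, a GABA transporter known from glia, was highest in Müller cells at 713 ± 157 CPM (lowest 539, median 668, highest 1090). Astrocytes followed at 489 ± 228 CPM and ACs at 169 ± 38.4. SLC6A9, the glycine transporter of glycinergic ACs, was highest in ACs at 151 ± 74.7 CPM (lowest 58.6, median 124, highest 279), with astrocytes at 78.3 ± 60.4. In ACs SLC6A9 was 211 ± 59.8 CPM under version 6.1.2 and 97.4 ± 34.4 under 7.0.1. The scaffold GPHN, which clusters glycine and GABA-A receptors, was found in every class, from 1675 ± 255 CPM in BCs to 527 in microglia. Cones at 1550 ± 237 and rods at 1532 lay close to BCs for GPHN, and these 3 did not differ beyond their spread.

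The comparison of ACs with BCs asked how the inhibitory neurons of the inner retina differ from the excitatory interneurons they contact. Both classes were taken from the same 15 retinas. A member was called at an adjusted p under 0.05 by edgeR's quasi-likelihood test with retina as a block and a log2 fold change of at least 1 in either direction. By this rule 16 of 21 tested members (76.2%) were called, 11 higher in ACs and 5 higher in BCs, beside 25.7% of all 14691 genes tested. The median log2 fold change of the members was 2.08 and that of all genes 0.02. Every called member had the same direction in 15 of 15 retinas.

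The members higher in BCs were led by the rho subunits. GABRR3 in ACs ranged from 0.550 through a median of 7.70 to 14.3 CPM, far below its 326 to 712 CPM in BCs. Its log2 fold change, ACs against BCs, was -5.93 (SE 0.165, adjusted p = 6.88e-18). GABRR1 in ACs ranged from 2.75 through 11.6 to 16.6 CPM, with a log2 fold change of -4.38 (SE 0.134, adjusted p = 2.96e-17). GABRA5 in ACs ranged from 1.10 through 3.32 to 6.07 CPM, with a log2 fold change of -4.06 (SE 0.0986, adjusted p = 1.18e-18). For these 3 genes no retina's ACs reached the level of any retina's BCs. GLRA1 at -1.13 and GABRA6 at -1.03 were nearer the fold limit, and GABRA6 fell just short of it without Infancy 3 or without Mature 4, at -0.99 each. Under the stricter assignment both fell short, GLRA1 at -0.92 and GABRA6 at -0.78.

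**Figure D2:**
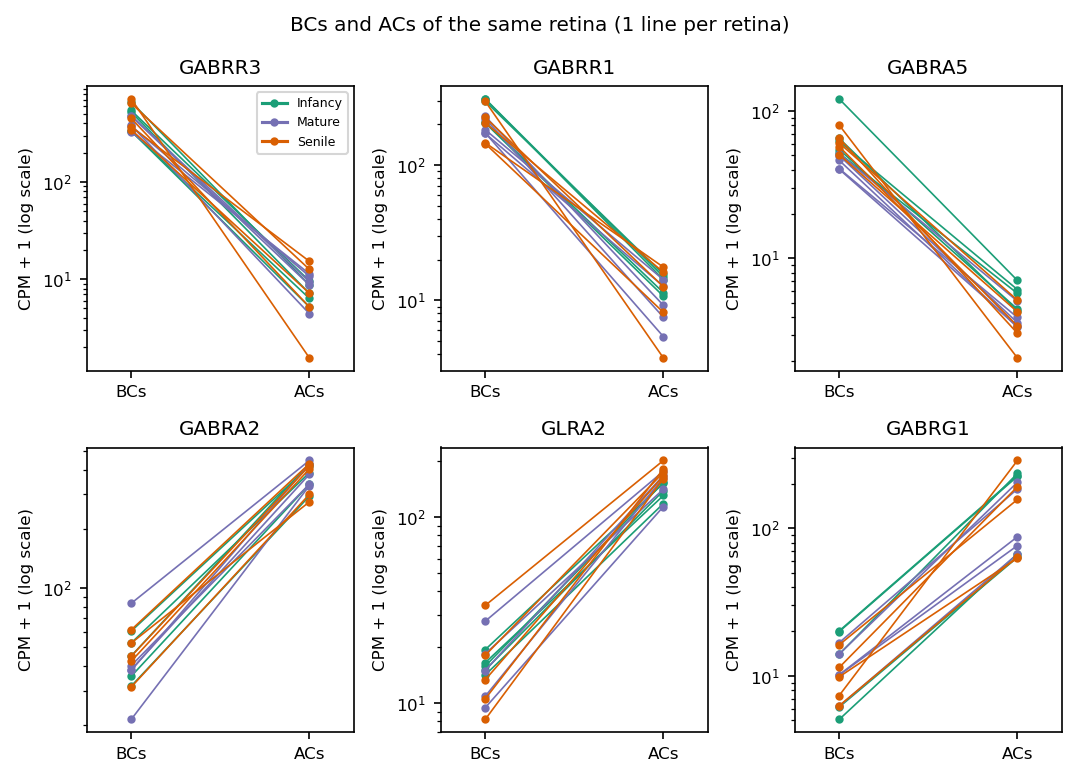
Levels of 6 members in BCs and ACs of the same retina, as CPM + 1 on a log axis; each line is 1 of 15 retinas, coloured by stage. GABRR3, GABRR1 and GABRA5 were lower in ACs in every retina, and GABRA2, GLRA2 and GABRG1 higher.

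The members higher in ACs covered most roles. GABRA4 had the largest log2 fold change of them, 4.75 (SE 0.146, adjusted p = 3.13e-17), with BCs between 1.35 and 12.9 CPM. GABRD followed at 3.70 and GABRG1 at 3.56. ACs without starburst markers, described below, held GABRA4 at 15.1 ± 5.74 CPM, beside 4.49 ± 3.30 in BCs. They held GABRD at 1.40 ± 0.961 CPM, beside 0.986 ± 0.576 in BCs. GLRA2 ranged from 7.17 through 14.1 to 32.6 CPM in BCs and had a log2 fold change of 3.29 (SE 0.0983, adjusted p = 2.09e-17). GABRA3 (3.15), GABRA2 (3.07), GABRG3 (2.69), GLRA4 (2.54) and GABRB1 (2.33) were further receptor subunits with higher levels in ACs. GABRD and GLRA4 rested on 59 and 63 UMIs in the BCs of 15 retinas, so both passed the filter on low counts through the ACs. Of the uptake transporters SLC6A11 was higher in ACs by a log2 fold change of 2.27 and SLC6A9 by 2.08, and the others were not tested. ACs and BCs were within a 2-fold range for GABRB2 (-0.58), GPHN (-0.35), GABBR1 (-0.30), GABBR2 (0.37) and GLRB (0.79), and each of these 5 passed the p-value alone. The adjusted p-values of the called members ran from 1.18e-18 to 3.25e-10.

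RGCs were compared with ACs in the same way, as the output neurons with the interneurons beside them, and 8 of 21 tested members (38.1%) were called beside 16.1% of 14604 genes. The ACs are those of the comparison above, so the comparisons share samples. Of the 8, 7 were lower in RGCs. GABRA6 alone was higher: its levels ran from 131 to 279 CPM in RGCs and from 64.5 to 119 in ACs, which do not overlap, with a log2 fold change of 1.27 (SE 0.0443, adjusted p = 4.72e-18). The largest differences were in GABRD (-4.43) and GABRA4 (-4.30). GABRA4 ran from 1.34 to 17.9 CPM in RGCs. GABRD ran from 0 to 2.79 CPM in RGCs, on 39 UMIs, so it passed the filter on low counts through the ACs. ACs without starburst markers, described below, held GABRD at 1.40 ± 0.961 CPM, beside 0.872 ± 0.863 in RGCs. They held GABRA4 at 15.1 ± 5.74 CPM, beside 6.66 ± 3.87 in RGCs. GLRA1 (-2.68), SLC6A11 (-2.64), SLC6A9 (-2.61), GABRG1 (-2.31) and GABRA3 (-1.85) were the others. GABRA2 differed by -0.07 (SE 0.0427, adjusted p = 0.138), with overlapping levels. GABBR2 was higher in RGCs in 15 of 15 retinas by 0.88, under the fold limit. The called members had adjusted p-values from 1.99e-19 to 5.91e-15, and the median over members was -0.41 beside 0.02 over all genes.

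**Figure D3:**
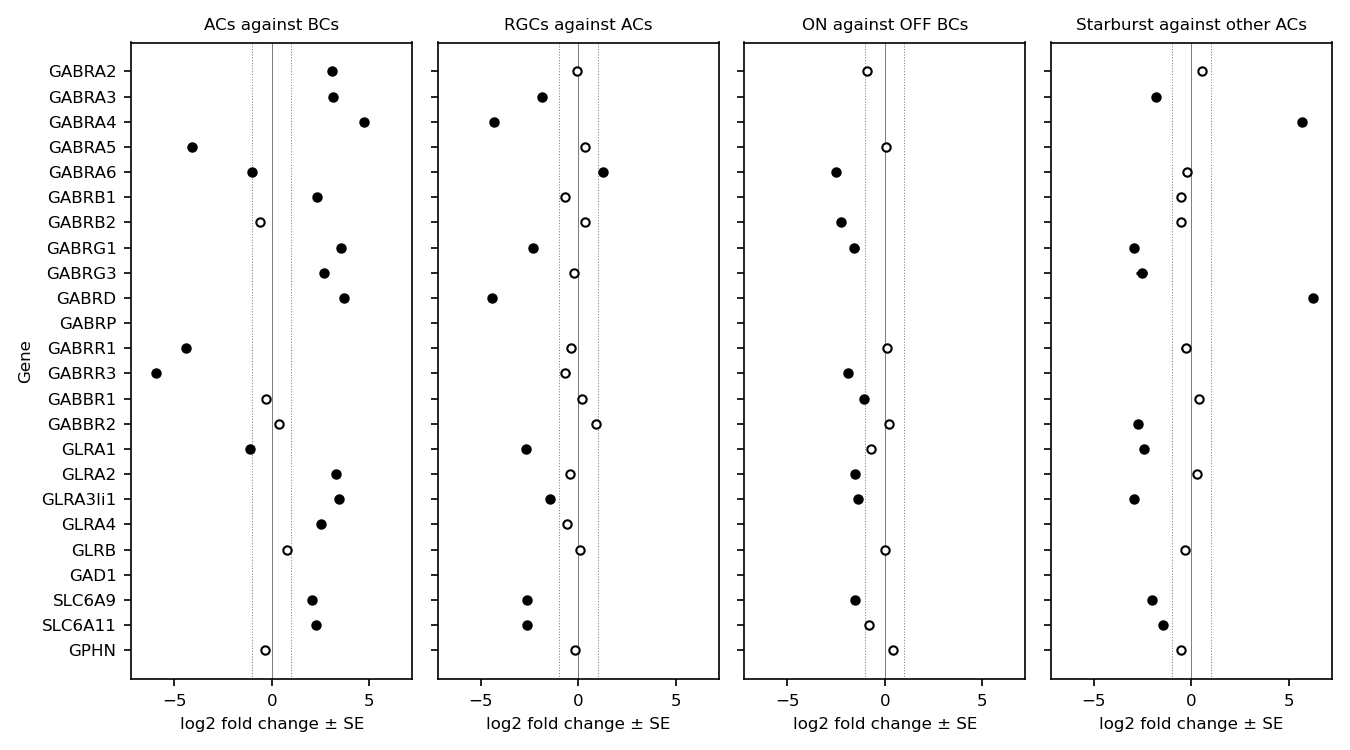
Log2 fold change of the members in the 4 comparisons between classes or subclasses of the same retinas; filled points were called (adjusted p under 0.05 and a log2 fold change of at least 1), open points were not, and dotted lines stand at 1 and -1. GABRR3 was lowest in ACs against BCs at -5.93, and GABRD was highest in starburst against other ACs at 6.24.

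Within BCs, the ON and OFF types answer to light with opposite signs and end in different layers, and the comparison asked whether their receptors differ. ON BCs (3447 nuclei) held at least 2 ON markers and under 10 UMIs of the OFF markers per 10000, and OFF BCs (9812 nuclei) at most 1 ON marker and at least 50 such UMIs. BCs that met neither rule were left out. The median was 3319 UMIs per nucleus in ON BCs and 1977 in OFF BCs, and the part of this difference in the calls was not tested. Of 15 tested members 7 (46.7%) were called, all lower in ON BCs, beside 13% of 9450 genes. The genes called over the whole table comprised 432 higher and 800 lower in ON BCs.

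The rho subunits went apart in this comparison. GABRR3 ranged from 102 through 162 to 348 CPM in ON BCs and from 491 through 680 to 962 in OFF BCs, with no overlap, and its log2 fold change was -1.88 (SE 0.0785, adjusted p = 1.01e-18). GABRR1 ranged from 102 through 260 to 341 CPM in ON BCs and from 141 through 216 to 356 in OFF BCs, overlapping throughout, with a log2 fold change of 0.10 (SE 0.0851, adjusted p = 0.373). The difference between both genes was not itself tested. GABRA6 ranged from 0 through 34.4 to 62.2 CPM in ON BCs and from 146 through 205 to 264 in OFF BCs, with a log2 fold change of -2.50 (SE 0.0992, adjusted p = 2.83e-19). GABRB2 ranged from 91.5 through 152 to 232 CPM in ON BCs and from 504 through 687 to 825 in OFF BCs, with a log2 fold change of -2.24 (SE 0.0857, adjusted p = 1.13e-19). GABRA6 and GABRB2 were thus higher in every retina's OFF BCs than in any retina's ON BCs.

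GABRG1 (-1.56), GLRA2 (-1.55) and SLC6A9 (-1.52) were also called lower in ON BCs, where they rested on 45, 65 and 102 UMIs over 15 retinas. Their means were 5.06, 4.62 and 10.6 CPM in ON and 12.4, 15.8 and 38.9 in OFF BCs, so these 3 passed the filter on low counts through the OFF BCs. In ACs these 3 measured 146, 156 and 151 CPM, and the part of AC RNA in their BC levels was not tested. GABBR1 (-1.06) was just past the fold limit and was at -0.98 without Infancy 5. Near-equal levels were found for GABRA5 (0.04, SE 0.0872), a BC gene with 70.5 ± 38.3 CPM in ON and 58.9 ± 21.2 in OFF BCs, and for GLRB (0.01, SE 0.0992). GLRA1, a glycine receptor subunit, measured 269 ± 51.5 CPM in ON and 404 ± 42.4 in OFF BCs, a log2 fold change of -0.72 that stayed under the fold limit. GPHN was higher in ON BCs in 15 of 15 retinas, by 0.43. The adjusted p-values of the called members ran from 1.13e-19 to 3.46e-06. In Senile 2 the ON BCs were 29 nuclei with 29336 UMIs, in which 3 UMIs amount to 102 CPM.

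Starburst ACs, the cholinergic ACs that serve the detection of motion direction, were separated from other ACs by at least 3 of their own markers. The other ACs held none of these markers, which gave 1972 and 13911 nuclei. ACs between these limits were left out. Of 18 tested members 9 (50%) were called, 2 higher and 7 lower in starburst ACs, beside 17.2% of 10243 genes. The pair of genes that was higher, GABRA4 and GABRD, codes for subunits known to join in receptors outside synapses.

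GABRA4 was far higher in starburst ACs than in ACs without starburst markers. Starburst ACs held 7368 and other ACs 921 of its 9955 UMIs in ACs, the rest lying in the ACs left out. Its levels in starburst ACs were 760, 662, 675, 676 and 797 CPM in the infant retinas, 708, 673, 664, 764 and 805 in the mature retinas and 595, 879, 667, 940 and 811 in the senile retinas. In other ACs GABRA4 ranged from 6.88 through 13.7 to 26.4 CPM. Its log2 fold change was 5.69 (SE 0.119, adjusted p = 8.40e-23). GABRD in starburst ACs was 215, 185, 181, 28.0 and 35.2 CPM in the infant, 112, 176, 74.2, 85.2 and 41.4 in the mature and 130, 240, 142, 26.1 and 35.8 in the senile retinas. In other ACs GABRD ran from 0 through 1.28 to 3.62 CPM, and its log2 fold change was 6.24 (SE 0.190, adjusted p = 1.43e-19). It rested on 66 UMIs in other ACs, beside 942 in starburst ACs and 1216 in all ACs. It thus passed the filter on low counts through the starburst ACs. Neither gene overlapped between starburst and other ACs. GABRA4 was steady across libraries, whereas GABRD in starburst ACs was 177 ± 44.6 CPM under header version 6.1.2 and 58.5 ± 40.2 under 7.0.1, where Senile 3 was the highest.

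**Figure D4:**
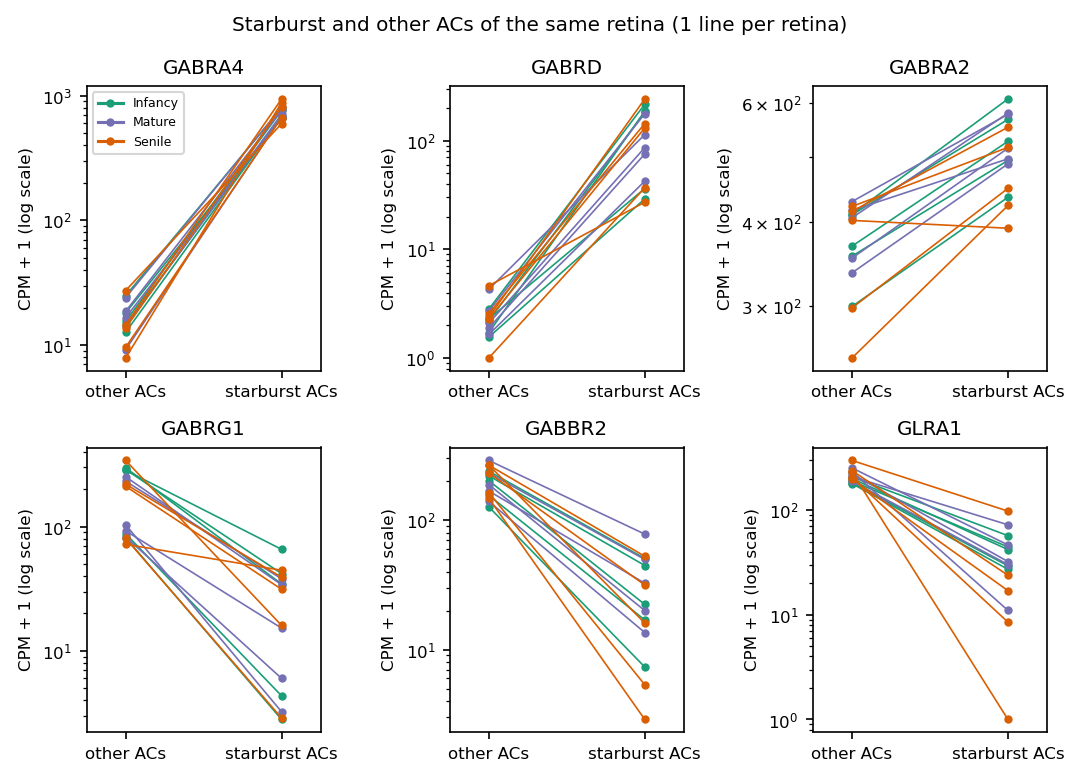
Levels of 6 members in other ACs and starburst ACs of the same retina, as CPM + 1 on a log axis; each line is 1 of 15 retinas, coloured by stage. GABRA4 and GABRD were higher in starburst ACs in 15 of 15 retinas and GABRA2 in 14, while GABRG1, GABBR2 and GLRA1 were lower in 15.

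The members lower in starburst ACs were GABRG1 (-2.94), GABBR2 (-2.73), GABRG3 (-2.54), GLRA1 (-2.40), SLC6A9 (-2.04), GABRA3 (-1.83) and SLC6A11 (-1.44), each in 15 of 15 retinas. GABRG3 measured 5.17 ± 5.23 CPM in starburst ACs, on 55 UMIs, so it passed the filter on low counts through the other ACs. GLRA1 ranged from 0 through 29.2 to 97.0 CPM in starburst ACs and from 179 through 207 to 298 in other ACs. GABBR2 ranged from 1.88 through 21.3 to 76.9 CPM in starburst ACs and from 125 through 201 to 288 in other ACs. Both were separated without overlap. GLRA2 differed little, at 187 ± 51.5 CPM in starburst and 160 ± 18.0 in other ACs (log2 fold change 0.28), unlike GLRA1, though the difference between both subunits was not itself tested. GABRA2 was higher in starburst ACs by 0.56, under the fold limit, at 507 ± 63.5 against 371 ± 54.5 CPM. The adjusted p-values of the called members ran from 8.40e-23 to 7.39e-09, and the median over the 18 members was -0.53 beside 0.01 over all genes.

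Few changes of the members between the stages were called. In 9 classes, 123 combinations of a member and a class were tested by edgeR with the stage and the header version in the model, and a change was called at an adjusted p under 0.05. Senile against infant retinas gave 1 call (0.813%) beside 1.19% of 86489 tests over all genes, and mature against infant retinas 1 call beside 0.774%. Senile against mature retinas gave 0 calls beside 0.00925%, with 7 of the 123 combinations at an unadjusted p under 0.05 and 1 called by DESeq2. The shares of the members lay near those of all genes. The median log2 fold change over the 123 combinations was 0.02, -0.04 and 0.03 in that order, and the median SE was 0.319, 0.312 and 0.314.

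Both calls were SLC6A11 in cones, where the glial GABA transporter measured a small part of its Müller cell level. In infant retinas it was 106, 176, 110, 144 and 189 CPM. In mature retinas it was 43.6, 60.7, 73.9, 79.3 and 77.1 CPM, all below the infant retinas. In senile retinas it was 72.8, 123, 55.4, 65.8 and 86.8 CPM, with Senile 2 inside the infant range. The log2 fold change of mature against infant was -1.18 (SE 0.234, adjusted p = 0.0135), in a class where 1.4% of 14312 genes were called. That of senile against infant was -0.94 (SE 0.228, adjusted p = 0.0428), beside 1.94% of genes in cones.

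In Müller cells SLC6A11 was 660 ± 62.8, 739 ± 215 and 740 ± 174 CPM in infant, mature and senile retinas. The Müller marker list summed to medians of 92.8, 119 and 164 CPM in cones of the 3 stages, and ranged from 54.7 to 171, 65.3 to 151 and 75.7 to 185. The astrocyte list summed to medians of 37.0, 28.2 and 35.3 CPM, and ranged from 18.0 to 41.5, 26.0 to 41.7 and 33.2 to 66.0. AC markers summed to medians of 1333.5, 1441 and 1448 CPM in cones. Infant retinas, where SLC6A11 in cones was highest, thus had the lowest median of the Müller and AC lists and the highest of the astrocyte list. The part of these lists in the level was not tested. Within version 6.1.2 alone the log2 fold changes were -1.33 for mature (adjusted p = 0.0693) and -0.55 for senile (adjusted p = 0.526) against infant retinas, and within 7.0.1 they were -1.14 (0.0963) and -1.33 (0.0352). The call of the mature stage was lost without Mature 1 (adjusted p = 0.0581) or Infancy 5 (0.0553). The call of the senile stage was lost without Infancy 2 (0.127), Infancy 4 (0.0869), Infancy 5 (0.141), Mature 2 (0.0589), Mature 3 (0.0567), Mature 5 (0.0559), Senile 1 (0.102), Senile 3 (0.0863), Senile 4 (0.109) or Senile 5 (0.0786), with log2 fold changes from -1.23 to -0.81 over all retinas left out. It was also lost with clusters in place of the marker assignment (-0.86, adjusted p = 0.0630) and without the header version in the model (-0.94, adjusted p = 0.0583).

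**Figure D5:**
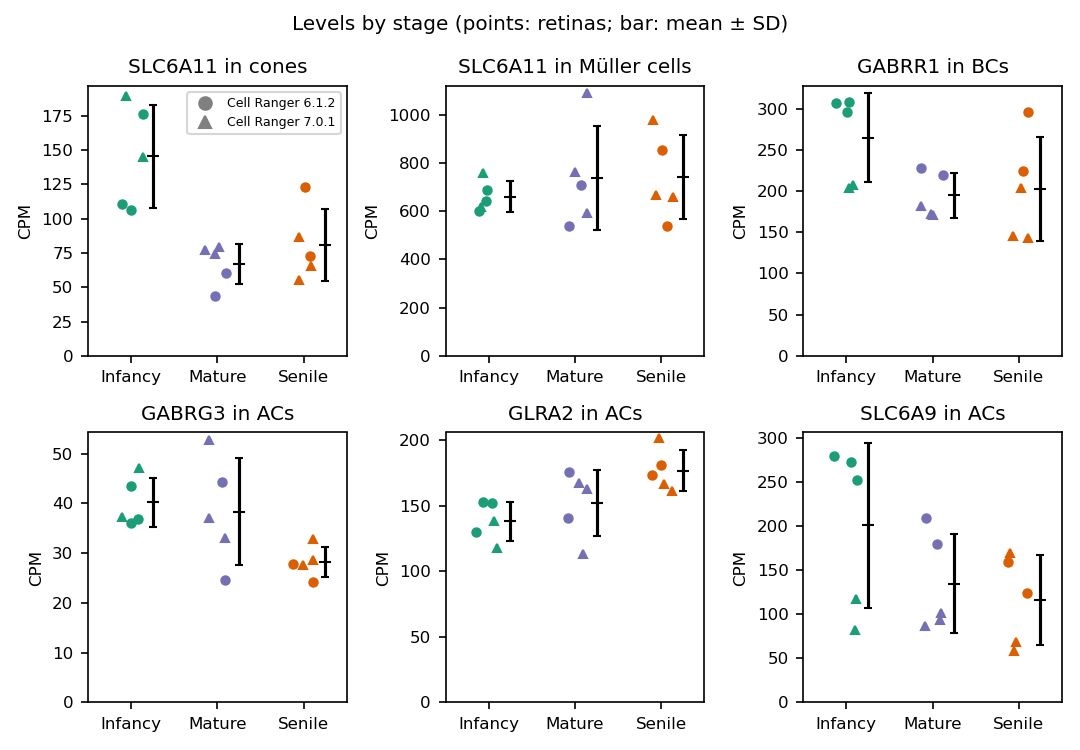
Levels (CPM) of members by stage in single classes; points are retinas, shaped by the Cell Ranger version of the file header, and bars give mean ± SD (n = 5). SLC6A11 in cones was lower in mature than in infant retinas without overlap, and the other panels show members that did not pass the test.

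Some members with stages that did not overlap or with a call under another setting follow. None of them passed the adjusted p with all retinas and the filter and test named above. Stages also did not overlap in some comparison for GLRA1 and GABRR1 in rods and GABRA5 in BCs. The same held for GABRA4 in HCs, GABRD in RGCs and GABRB2 in OFF BCs. Over all retinas GLRA1 and GABRR1 in rods rested on 75 and 24 UMIs, GABRA4 in HCs on 45 and GABRD in RGCs on 39. In the shallowest retina of the class, 3 UMIs amounted to 52.9 CPM in rods and 48.1 in HCs. The share of all genes without such overlap was not counted, so a lack of overlap is given as a description only. GABRG3 in ACs was 43.5, 36.1, 36.9, 37.2 and 47.2 CPM in infant and 27.7, 24.2, 28.7, 32.9 and 27.6 in senile retinas, which did not overlap (log2 fold change -0.62, SE 0.169, adjusted p = 0.106). GABRG3 was called by DESeq2 (-0.63, adjusted p = 0.0484) and by edgeR without a filter on low counts (-0.69, adjusted p = 0.0250). GLRA2 in ACs was 153, 130, 152, 138 and 118 CPM in infant and 174, 181, 161, 201 and 166 in senile retinas, again without overlap (0.30, SE 0.127, adjusted p = 0.442). GABRR1 in BCs was 264 ± 54.0, 195 ± 27.6 and 203 ± 63.2 CPM over the stages (senile against infant -0.40, adjusted p = 0.0934). It was called without Senile 2, the shallowest library, at -0.47 (adjusted p = 0.0380). SLC6A9 in ACs was 201 ± 93.7, 135 ± 56.2 and 116 ± 50.9 CPM (-0.56, adjusted p = 0.466), and was called without Senile 3 at -0.88 (adjusted p = 0.000949).

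GABRA6 in Müller cells was the member whose mature retinas stood apart. It was 15.0, 28.9, 22.0, 26.7 and 27.1 CPM in infant, 48.7, 47.6, 46.3, 47.1 and 44.2 in mature and 42.4, 19.7, 18.4, 24.2 and 14.8 in senile retinas. Mature retinas did not overlap either of the other stages. The log2 fold change was 0.92 for mature against infant (SE 0.234, adjusted p = 0.104) and -1.05 for senile against mature (SE 0.249, adjusted p = 0.308). Without Senile 1 the latter was called at -1.35 (adjusted p = 0.0464). DESeq2 called both, at 0.91 (adjusted p = 0.0221) and -1.09 (adjusted p = 0.0192), and edgeR without a filter called the latter at -1.17 (adjusted p = 0.0217). BC and RGC marker lists summed to medians of 746 and 331 CPM in mature Müller cells, beside 748 and 466 in infant and 1014 and 424 in senile ones. The BC list reached 1766 CPM in a single infant, 2276 in a mature and 1161 in a senile retina. BCs and RGCs are rich in GABRA6, and the part of these lists in its level was not tested.

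Further genes of the inhibitory pathway were counted from a list of 34: scaffold and chloride genes, GABA-B effectors, and enzymes and carriers of GABA and glycine metabolism. Between ACs and BCs, 1 of 19 tested genes was higher in ACs and 6 were lower, beside 25.7% of all genes called in either direction. The higher gene was KCNJ3 (log2 fold change 3.85), a potassium channel opened by GABA-B receptors. The lower genes included the glutamine carriers SLC38A3 (-3.34) and SLC38A1 (-1.38), the chloride importer SLC12A2 (-2.11), and the synapse proteins SLITRK3 (-1.69) and LHFPL4 (-1.52). Between RGCs and ACs SLC12A2 was higher in RGCs (1.44) and PLCL1 (-1.65), SLITRK3 (-1.55) and KCNJ3 (-1.58) were lower, of 20 tested, a share near the 16.1% of all genes.

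ON and OFF BCs differed most in PLCL1, which codes for a protein that binds GABA-A receptors during their transport: 28.9 ± 18.2 CPM in ON and 803 ± 157 in OFF BCs, a log2 fold change of -4.97 (SE 0.143, adjusted p = 1.85e-22). KCNJ3 (-2.04), GLUL (-1.60), GLDC (-1.43) and LHFPL4 (-1.05) were also lower in ON BCs, and the genes higher in ON BCs included SLC38A3 (1.29). Of 18 tested genes 5 were lower and 2 higher, beside 13% of all genes. GLUL and GLDC averaged 8.92 and 7.58 CPM in ON and 23.1 and 19.5 in OFF BCs, so both passed the filter on low counts mainly through the OFF BCs. GLUL is a Müller marker as well, and GLDC measured 149 ± 36.7 CPM in Müller cells. The part of Müller RNA in their BC levels was not tested. In starburst ACs KCNJ3 was higher at 3137 ± 590 CPM against 644 ± 85.7 in other ACs (2.37), while KCTD8 (-3.06), an auxiliary subunit of GABA-B receptors, PLCL1 (-2.70), GLDC (-1.88), SLITRK3 (-1.59) and SLC12A2 (-1.47) were lower. GLDC measured 6.82 ± 6.87 CPM in starburst and 26.1 ± 4.44 in other ACs, so it passed the filter on low counts mainly through the other ACs. In starburst ACs 1 gene was thus higher and 5 were lower of 17 tested, beside 17.2% of all genes. KCNJ3 was thus higher and GABBR2 lower in the same cells.

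Between the stages, 141 combinations of these genes and classes were tested in each comparison. Senile against infant retinas gave 2 calls, mature against infant retinas 1 and senile against mature retinas 0, shares near the 1.19%, 0.774% and 0.00925% of all genes. PLCL1 in microglia was 65.2 ± 63.1, 356 ± 102 and 313 ± 130 CPM over the stages, higher in mature (2.60, adjusted p = 0.0310) and in senile retinas (2.42, adjusted p = 0.0451). Microglia entered with 5, 4 and 5 retinas. Their own marker list summed to medians of 11839, 6037 and 4717 CPM over the stages. Among the lists of classes with more PLCL1 than microglia, the medians were 501, 662 and 1169 CPM for BCs and 309, 391 and 485 for Müller cells, the AC list 961, 1273 and 1636, the HC list 94.0, 168 and 126 and the astrocyte list 59.9, 158 and 122. PLCL1 measured 413 ± 316 CPM in astrocytes, 1258 ± 353 CPM in HCs, 457 ± 82.1 CPM in BCs, 535 ± 217 in Müller cells and 354 ± 62.0 in ACs. The part of these lists in the level of PLCL1 in microglia was not tested.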

How the data were processed

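Nuclei of 15 frozen TS retinas had been profiled by 10x Genomics single-nucleus RNA-seq. Per the study's methods the reads were aligned to the TS_3.0 genome, and the authors deposited raw UMI counts per feature and called barcode, with no normalization, as Cell Ranger wrote them. The file headers give Cell Ranger 6.1.2 for 7 libraries, for which the labels give 5.0.1, and 7.0.1 for 8. Whether intronic reads were counted is not given in the sources used here. Sex is not in the labels and was not used. It nearly follows the header version, so differences by version and by sex can hardly be told apart. Stage and replicate came from the sample titles. The labels and the methods describe different versions of the library kit.

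From these counts, barcodes with 200 to 6000 genes and under 5% mitochondrial UMIs were kept (Python 3.11.15, scanpy 1.11.5), and the barcodes with the highest Scrublet scores were removed in each retina as doublets, at 8 per 1000 nuclei for every 1000 nuclei. Nuclei were assigned to classes by 103 marker genes: nuclei with at least 3 markers of a list and a summed z-score at least 3 above the next list gave the marker rates of a class, and a nucleus was assigned at a posterior above 0.999 with at least 2 own markers and its list among the 2 highest scores. The lists were common retinal markers and those of the study. The rule of assignment was set after seeing the data, and 27 to 3896 nuclei per class lay just below the limit, at a posterior of 0.9 to 0.999. The gene list and its members were chosen with earlier results of these data known. AC markers include broad genes, and their sum had a median of 7.66 to 16.7 UMIs per 10000 in the other classes, against 63.6 in ACs.

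The UMIs of each class were added up within a retina and tested with edgeR 4.0.16 (TMM, filterByExpr, quasi-likelihood test; R 4.3.3) with Benjamini-Hochberg adjustment over all genes of a class. A class entered for a retina from 20 nuclei on. Stages were fitted with the header version as covariate, and classes of the same retinas with retina as a block. The SE given with an edgeR fold change is approximate. It is the absolute log2 fold change divided by the square root of the F statistic of the test. This departs from the study's model over nuclei, since nuclei are not replicates. All members are accounted for by role, values in every retina are given for members called between stages, and the numbered copies were named after their counts were seen. Some genes of the wider pathway list are not reported here. The procedure was checked on simulated data. Alternatives were DESeq2 1.42.0, its size factors, no filter on low counts, no version covariate, a replicate block, doublets kept, a stricter assignment, clusters within each retina, single header versions and leaving out each retina. Ranges and limits from counts of 0 (3 UMIs) cover counting error only.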

Additional observations from a re-analysis of the deposited data

Results flagged for a closer look

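In 75 groups of a member, its highest class and a stage, 3 retinas stood apart from the other 4 of their group by Dixon's criterion, and chance alone gives about 1 in 20 groups. GABRA5 in BCs of Infancy 3 was at 120 CPM, with the other infant retinas between 50.8 and 64.4. GABRB2 in BCs of Mature 1 was at 430 CPM, with the other mature retinas between 536 and 568. GABRP in astrocytes of Senile 2 was at 14.0 CPM, resting on 1 UMI, with the other senile retinas between 50.8 and 62.5. No member differed between classes in opposite directions between stages.

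Antisense features named after a member were not used in the comparisons, and 5 held more UMIs than the member itself. GABRR1-AS-2 held 87756 UMIs and measured 551 ± 186 CPM in BCs, 164 ± 82.1 in HCs and 46.8 ± 13.6 in ACs. GLRA3-AS-1 held 2259 UMIs, with 12.1 ± 4.54 CPM in HCs and 11.2 ± 2.96 in ACs. GAD1-AS-1 held 685 UMIs, with 0.585 to 9.64 CPM in ACs. GAD2-AS-1 held 889 UMIs, with 4.00 ± 3.82 CPM in ACs. SLC6A5-AS-2 held 143 UMIs, with 0.788 ± 0.541 CPM in RGCs. How the counting set strand is not given in the sources used here, so reads of a gene and of its antisense feature may not be separable.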

How the results depend on the processing

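Calls between stages were few and moved with the settings. For senile against infant retinas the main setting gave 1 call, and the others gave 0 without the version covariate, 5 without a filter on low counts, 4 with DESeq2, 2 with the stricter assignment, 3 within version 6.1.2, 2 within 7.0.1, and 0 to 2 when each retina was left out. The shares of all genes called were 0.849%, 1.05%, 0.518%, 1.03%, 1.3% and 0.503% in the same order of settings, of 123, 212, 212, 90, 117 and 125 combinations of a member and a class. For mature against infant retinas the 1 call became 3 with DESeq2 (0.419% of all genes), 0 within version 6.1.2 (0.915%), 0 within 7.0.1 (0.113%), and 0 to 1 when each retina was left out. For senile against mature retinas the 0 calls became 1 without a filter (0.488%), 1 with DESeq2 (0.0776%), and 0 to 1 when each retina was left out. Members called under other settings included GLRA1 in rods (senile against infant, 2.73 with DESeq2, 2.41 without a filter and 3.05 under the stricter assignment), GABRR1 in BCs (-0.44 with DESeq2 and -0.55 with clusters), SLC6A9 in ACs (-0.63 without a filter and -1.02 within version 6.1.2) and GABRA6 in Müller cells (senile against mature, -1.09 with DESeq2). GLRA1 in rods rested on 75 UMIs in 14 retinas. For senile against infant retinas, GABRA2 in astrocytes (-1.21) and GABRG1 in RGCs (-0.98) were called within version 6.1.2. In the same comparison SLC6A9 in RGCs (-0.97) was called without a filter and GPHN in microglia (1.55) within version 7.0.1. With clusters the senile call of SLC6A11 in cones was lost and that of GABRR1 in BCs took its place. The replicate block, fitted without the version, gave 1, 1 and 0 calls and changed no other call. Replicate numbers name different animals, and same-numbered retinas correlated from -0.46 to 0.60 in ACs (median 0.35, against -0.25 for other numbers) and from -0.34 to 0.52 in BCs (median 0.27, against -0.14). Same-numbered retinas also shared the header version, except for number 3, where Infancy 3 carried 6.1.2 and Mature 3 and Senile 3 carried 7.0.1. The part of the version in these correlations was not tested. Since some pairs were negative and 4 of 15 retinas matched their own number best, the numbers were not taken to pair the samples.

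Between classes, the number of called members in ON against OFF BCs rose from 7 to 11 without a filter and 12 with DESeq2, where 25 members were tested in place of 15 and 7.95% and 5.93% of all genes were called. The numbers in the other comparisons kept within 1.5 times. Of 794 values of single members in these comparisons, 786 kept their side of the limits and 8 fell short of the fold limit (GABRA6 and GLRA1 in ACs against BCs, GABBR1 in ON against OFF BCs). The highest class of 23 members was the same for 23 with doublets kept, 17 under the stricter assignment and 21 with clusters, which were named by the class of most of their assigned nuclei. Of 69 levels in the highest class, 8 moved by more than 1 SD, under the stricter assignment or with clusters. No value changed direction. Depth limited the rare classes: a count of 3 UMIs amounted to 147 CPM in the shallowest microglia, 52.9 in rods, 48.1 in HCs and 42.1 in astrocytes.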
